A study of Xenopus laevis with 8 samples.

Results

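The members described here are the Hox cluster probes of a Xenopus laevis array, together with the probe of the caudal-type gene cdx4. A probe was a member if its design name gave a hox gene of cluster A to D, or if its description named such a gene or a caudal gene. The hoxd10 probe carries only a clone number as its name and was added by its probe identity. Described here are 12 of 21495 probes, 11 of them for 10 Hox genes and 1 for cdx4, so that 11 genes are covered. The HoxA cluster is represented by 5 probes for 4 genes (hoxa9 with 2 probes, hoxa2, hoxa3 and hoxa11), HoxC had 3 (hoxc5, hoxc8, hoxc10) and HoxD had 3 (hoxd1, hoxd10, hoxd13). No HoxB probe met the rule. Another 9 probes that older names or the RefSeq annotation tie to Hox, evx or cdx genes are described apart and were not counted.

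Animal caps are the ectoderm at the top of the blastula. They were cut at stage 9 from embryos that had received mRNA as single cells. Every group received 0.2 ng of mRNA for Noggin, a BMP inhibitor that neuralises caps. The active EBF3 caps carried 1 ng of hGR-XEBF3 mRNA, which encodes the transcription factor EBF3 fused to the human glucocorticoid receptor's hormone-binding part, and were kept in 30 µM dexamethasone (DEX) for 4.5 hours. The DEX control caps carried 0.4 ng of mRNA for hGR alone and had the same DEX treatment. The untreated caps carried 1 ng of hGR-XEBF3 mRNA and had no DEX. Each of the 8 arrays set DEX-treated caps in Cy3 against untreated hGR-XEBF3 caps in Cy5, with 4 active EBF3 arrays and 4 DEX control arrays, described by the submitters as biological replicates. The dyes were not swapped. The fusion protein was expressed from injected mRNA throughout the cap, so the caps model forced EBF3 activity and not its normal domain.

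Hox genes encode homeodomain transcription factors that lie in clusters A to D. Genes at the same place in different clusters form a paralog group. Low-numbered groups are used in the hindbrain and high-numbered groups in the trunk and tail, and the order along a cluster follows the order along the body axis. Cdx proteins, relatives of fly Caudal, act upstream of many trunk Hox genes, as do Wnt, FGF and retinoic acid signals, while Pbx and Meis proteins bind DNA beside Hox proteins. Isolated cap ectoderm neuralised by Noggin takes on anterior neural character, in which trunk Hox genes are normally silent.

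On the active EBF3 arrays, 3 of the 12 members rose and none fell, and the 3 were the HoxD probes hoxd10, hoxd1 and hoxd13. A call needed a Benjamini-Hochberg adjusted p under 0.05 in limma and a change of at least 2-fold. Over all 21357 probes tested, 3.03% were called higher and 2.84% lower. The study picked hoxd10 from these same arrays, partly for its rise, so its place in the member counts is not independent of the result. Among the members that met the naming rule, only hoxd1 and hoxd13 were called. None of the 5 HoxA probes, the 3 HoxC probes or the cdx4 probe was called. The untreated signal was well above background on any active EBF3 array for 1 of 5 HoxA and 0 of 3 HoxC probes, against 3 of 3 HoxD probes. For the probes without such a signal, a missing call is not a measured absence of change. Among the probes set apart by name, hoxc6 of the HoxC cluster was called (6.20-fold, adjusted p = 0.0107 in limma). The median log2 ratio was 1.63 over the members, against 0.08 over all probes tested, and 11 members had a mean above 0, as did 57.8% of all probes. Of these 11, 4 had neither channel well above background on any active EBF3 array. On the DEX control arrays 9 of 12 members also had a mean above 0. In the difference between the 2 kinds of array 8 of 12 did, with a median of 1.30, against -0.08 over all probes. By paralog group, 1 of 3 probes of groups 1 to 3 was called higher, 0 of 2 probes of groups 5 and 8, and 2 of 6 probes of groups 9 to 13, hoxd10 among them.

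**Figure D1:**
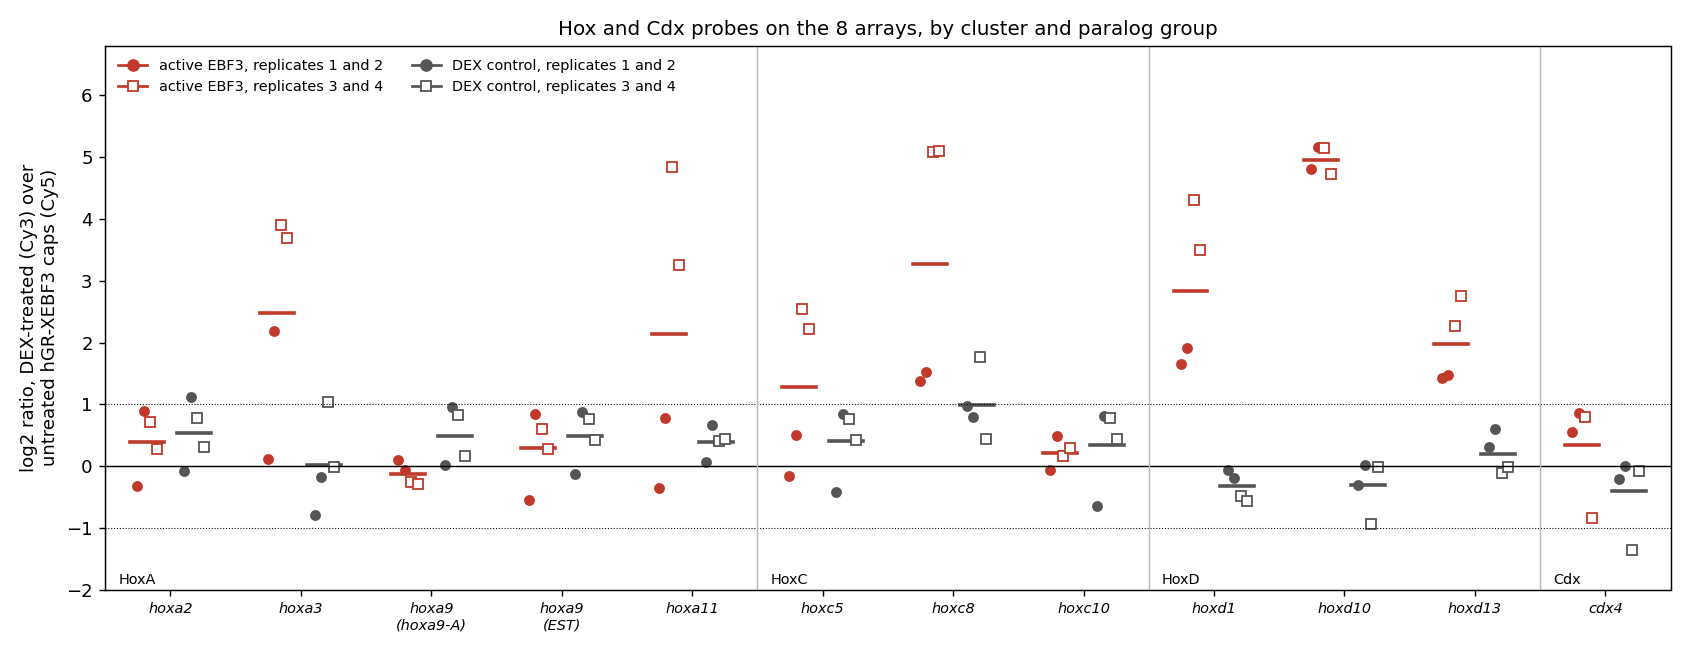
Log2 ratio of DEX-treated caps (Cy3) over untreated hGR-XEBF3 caps (Cy5) for each of the 12 members on the 4 active EBF3 arrays (red, left) and the 4 DEX control arrays (grey, right), with bars at the means and dotted lines at 2-fold. Circles are replicates 1 and 2 and squares are replicates 3 and 4. The 3 HoxD probes are the only members whose 4 red points all lie above their 4 grey points.

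The probe for hoxd10, a posterior gene used in the lumbar spinal cord and limb of vertebrates, had log2 ratios of 4.80, 5.16, 5.15 and 4.73 on the active EBF3 arrays, and of -0.30, 0.02, -0.94 and -0.01 on the DEX control arrays. The 2 sets lay far apart, and the 4 active EBF3 values spread little. The mean was 31.2-fold higher in active EBF3 caps than in untreated caps (log2 4.96 ± 0.14, SE, n = 4, adjusted p = 0.000448). By mean log2 ratio it stood at rank 17 among all probes tested on these arrays. The study picked hoxd10 as a candidate target from these same arrays, so its call here is not independent evidence. The study reports that its chosen candidates, hoxd10 among them, also rose in a separate array experiment on caps without Noggin. For the candidates it also reports RT-PCR on independent caps, with a rise for each gene tested. In whole embryos that overexpressed EBF3, the study found hoxd10 lowered in most of them by in situ hybridization. Its authors considered hoxd10 an unlikely target in the embryo at that stage.

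The hoxd10 signal itself was 9965, 6670, 7280 and 7813 in active EBF3 caps, against 357, 187, 205 and 294 in the untreated caps on the same arrays. On the DEX control arrays it was 181, 68.6, 22.2 and 33.2 in hGR caps and 224, 67.6, 42.5 and 33.5 in untreated caps. On the DEX control arrays it was well above background on 2 of 4 arrays in hGR caps and on 3 of 4 in untreated caps. The untreated caps thus gave a brighter hoxd10 spot when hybridised with active EBF3 caps, by 1.60-, 2.76-, 4.82- and 8.77-fold over the DEX control array of the same replicate. For hoxd1 the same ratio was 1.20, 1.27, 3.89 and 2.65, and for hoxd13 it was 1.17, 1.21, 2.17 and 2.43. Over all probes the median of that ratio was 1.01, 1.07, 1.52 and 1.37 in the same replicates, and over the probes called higher on the active EBF3 arrays it was 1.06, 1.16, 1.69 and 1.76. Both Cy5 channels carry the same label, and the source of the difference was not tested. A fold change within the active EBF3 arrays uses the brighter of these untreated values.

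The probe for hoxd1, an anterior labial-type gene that is induced by retinoic acid in Xenopus, had log2 ratios of 1.65, 1.91, 4.31 and 3.50 on the active EBF3 arrays and of -0.06, -0.19, -0.48 and -0.57 on the DEX control arrays. Both channels were well above background on all 8 arrays. Its signal was 8139, 7040, 7050 and 7265 in active EBF3 caps, against 2594, 1875, 355 and 644 in untreated caps on the same arrays. The active EBF3 channel was steady, while the untreated channel was lower on replicates 3 and 4 than on replicates 1 and 2. The mean was 7.17-fold higher (log2 2.84 ± 0.48, SE, n = 4, adjusted p = 0.0234). Without replicate 1 it was still called (adjusted p = 0.022), but the adjusted p was 0.0602 without replicate 2, 0.0502 without replicate 3 and 0.125 without replicate 4.

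The probe for hoxd13, the last gene of the HoxD cluster and a regulator of digit and tail-end identity in vertebrates, had log2 ratios of 1.42, 1.48, 2.26 and 2.76 on the active EBF3 arrays and of 0.30, 0.59, -0.11 and -0.01 on the DEX control arrays. The mean was 3.95-fold higher in active EBF3 caps (log2 1.98 ± 0.26, SE, n = 4, adjusted p = 0.0115). The spots were dim. The signal was 297, 102, 121 and 94.3 in active EBF3 caps, against 111, 36.6, 25.2 and 13.9 in untreated caps, and it was well above background on 3 of 4 arrays in the active EBF3 channel and on 1 of 4 in the untreated channel, so the size of the fold rests largely on untreated signals below the mark. With normexp background correction and loess in place of the processed signals the log2 ratio was 0.57 (adjusted p = 0.0746). Against the DEX control it was then 0.59 (adjusted p = 0.0742). In active EBF3 caps the adjusted p was 0.0509 without replicate 3 and 0.0554 without replicate 4. By the methods' t-test hoxd1 and hoxd13 were not called after adjustment over all probes (adjusted p = 0.174 for hoxd1 and 0.554 for hoxd13).

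**Figure D2:**
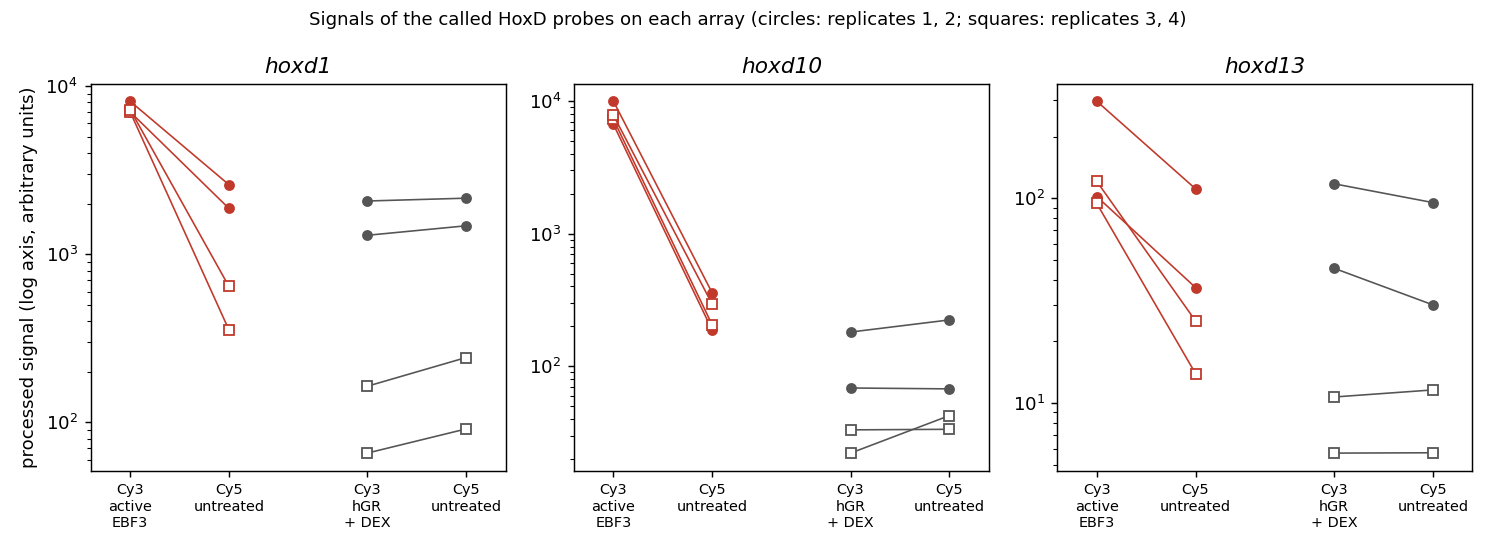
Processed signal (log axes, arbitrary units, a separate scale for each panel) of the 3 called HoxD probes, with each line joining the channels of 1 array. Red lines are active EBF3 arrays (Cy3 active EBF3 caps, Cy5 untreated caps) and grey lines are DEX control arrays (Cy3 hGR caps with DEX, Cy5 untreated caps). All red lines fall to the untreated channel. The hoxd10 signals of untreated caps lie higher on the red lines (187 to 357) than on the grey lines of the same replicate (33.5 to 224).

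The last member that was well above background in both channels of the active EBF3 arrays was one of the hoxa9 probes, with the design name hoxa9-A. Hoxa9 patterns the trunk and, in mammals, acts in blood progenitors. Its log2 ratios were 0.10, -0.07, -0.25 and -0.29 on the active EBF3 arrays and 0.02, 0.96, 0.83 and 0.16 on the DEX control arrays, so the 2 sets overlapped. The mean of the active EBF3 arrays was -0.13 ± 0.13 (SE, n = 4, adjusted p = 0.563), and the difference from the DEX control was -0.62 ± 0.24 (adjusted p = 0.289). The other hoxa9 probe, known to the array only by an expressed sequence tag, was below that mark in both channels on all 8 arrays and gave no second reading.

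For most members the untreated caps gave no measurable signal. On all 4 active EBF3 arrays the Cy5 signal of 7 of the 12 members fell short of the mark for well above background, as did that of 28.4% of all probes tested. Only 3 members (hoxd10, hoxd1 and hoxa9-A) passed that mark in both channels of all 4 arrays, against 45% of all probes. For 4 of these 7 (hoxa2, hoxc5, the second hoxa9 probe and hoxc10) neither channel was well above background on any active EBF3 array, as for 27.2% of all probes. For many of the dimmest spots the image software replaces the signal by a surrogate value, set by the noise of the array, and a ratio of 2 surrogates holds no measurement of the gene. On the active EBF3 arrays both channels were surrogates on all 4 arrays for hoxa2 and the second hoxa9 probe, on 3 for hoxc10 and on 2 for hoxc5. For hoxa2 the same held on the DEX control arrays, and its log2 ratios lay at -0.32 to 0.90 on active EBF3 arrays, against -0.07 to 1.12 on DEX control arrays. None of these 4 was called, and their mean log2 ratios in active EBF3 caps lay at 0.22 to 1.27.

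Of the 7 members without a measurable untreated signal, 3 had a Cy3 signal well above background on 2 or more active EBF3 arrays. These were hoxc8, on 3 arrays, and hoxa3 and hoxa11, on 2 each. Where Cy3 was measured and Cy5 was not, the ratio is not an exact fold. For a rough value the average intensities of the 4 active EBF3 arrays were first quantile-normalised to each other. The Cy3 signals of all 4 arrays were then averaged on the log scale, those below the mark included. The untreated level was set at the dimmest measurable signal of each array or the probe's own, whichever was higher. Active EBF3 caps then came out 4.41-fold higher for hoxc8, 3.60-fold for hoxa3 and 2.61-fold for hoxa11. Since some of these Cy3 signals were below the mark, the folds are not strict lower bounds. Before scaling, the dimmest measurable untreated signal was 146, 77.0, 6.25 and 8.80 on replicates 1 to 4. It is not a detection limit, since the untreated hoxa11 signal of 13.7 on replicate 4 fell short of the mark. On replicates 1 and 2 the Cy3 signal was 192 and 106 for hoxc8, 135 and 169 for hoxa3, and 65.2 and 66.2 for hoxa11. With normexp and loess the mean folds were below these, at 1.73, 1.41 and 1.61 in the same order. None was called over the 4 arrays, with adjusted p of 0.0613, 0.0773 and 0.19 in the same order.

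These probes differed between the arrays, and the difference followed the array design. Replicates 1 and 2 used one design with 1 spot a probe, and replicates 3 and 4 another with 2 spots a probe on a single slide, so that design, scan and replicate cannot be told apart. Hoxc8, a thoracic gene, had log2 ratios of 1.37 and 1.53 on the first design and 5.09 and 5.11 on the second. Its Cy3 signal on these arrays was 192, 106, 113 and 138. Its Cy5 signal, a surrogate on all 4, was 74.2, 36.7, 3.33 and 4.02, so these ratios follow the noise level of the untreated channel. Hoxa3, a hindbrain and pharyngeal gene, had 0.12 and 2.19 on the first and 3.90 and 3.69 on the second. Hoxa11, a posterior trunk and limb gene, had -0.36 and 0.78 on the first and 4.85 and 3.25 on the second. Hoxc5, a cervical gene, had -0.16 and 0.51 on the first and 2.54 and 2.21 on the second, its Cy3 signal staying below the background threshold throughout.

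In all, 6 of 12 members had design means more than 1 apart on the log2 scale, all 6 higher on replicates 3 and 4, against 9% of all probes in either direction. These were hoxd1, hoxa3, hoxc5, hoxc8, hoxa11 and hoxd13. The hoxd10 means, 4.98 and 4.94, differed least among the called probes. The dimmest signal counted as measurable in the untreated channel was 146 and 77 on replicates 1 and 2 of the active EBF3 arrays, against 6.25 and 8.80 on replicates 3 and 4, and its part in the differences was not tested. With replicates 3 and 4 alone, 7 members were called higher, hoxc8, hoxa3, hoxa11 and hoxc5 besides the 3 HoxD probes. In that setting 1423 of 21494 probes were called higher. With replicates 1 and 2 alone, hoxd10 was the only member called, and 102 of 21358 probes were called higher. Without replicate 1, hoxc8 (log2 3.91, adjusted p = 0.0476) and hoxa3 (3.26, adjusted p = 0.0115) were called too.

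The cdx4 probe, for a caudal-type regulator of trunk Hox genes, had no steady direction. Its log2 ratios were 0.55, 0.86, 0.79 and -0.84 on the active EBF3 arrays and -0.20, 0.00, -1.35 and -0.09 on the DEX control arrays. The mean of the active EBF3 arrays was 0.34 ± 0.31 (SE, n = 4, adjusted p = 0.506). It was measurable above background on 1 of 4 arrays in the active EBF3 channel and on 2 of 4 in the untreated channel.

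As a control for DEX and hGR, the DEX control arrays were tested in the same way. DEX, construct and mRNA dose differ together between the channels of these arrays, so they do not show the effect of DEX or hGR alone. No member was called on them, nor was any of the 21256 probes tested (0%). When replicate 1 was left out, 70 passed upward there and 119 downward, none of them a member. At an unadjusted p under 0.05 in limma, 4 of the 12 members had a ratio above 0 and none below, and 19% of all probes passed. By the methods' t-test no member had an unadjusted p under 0.05. The means of the members ran between -0.41 for cdx4 and 0.99 for hoxc8, with a median of 0.37, against 0.09 over all probes. At least 3 of the 4 ratios were ratios of 2 surrogates for hoxa2, hoxc5, hoxa11, hoxc10 and the second hoxa9 probe.

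The comparison of active EBF3 arrays with DEX control arrays contrasts hGR-XEBF3 and hGR in the presence of DEX, since both share the untreated condition by label. The untreated signals of hoxd10, hoxd1 and hoxd13 differed between the 2 kinds of array, as given above, so the fold differences depend on them too. A dye effect shared by both kinds of array drops out of the comparison. The constructs were injected at different doses. The same 3 HoxD probes were called higher and no member lower, against 2.42% and 1.44% of 21197 probes. Hoxd10 was 38.6-fold higher (log2 5.27 ± 0.24, SE, adjusted p = 4.83e-05), hoxd1 8.96-fold higher (3.16 ± 0.56, adjusted p = 0.0137) and hoxd13 3.45-fold higher (1.79 ± 0.33, adjusted p = 0.0162). On the DEX control arrays hoxd13 was well above background on 0 of 4 arrays in hGR caps and on 1 of 4 in untreated caps. For these 3 members all active EBF3 arrays lay above all DEX control arrays, as for 4.9% of all probes. Hoxd1 was not called without replicate 2, 3 or 4 (adjusted p = 0.0659, 0.0619 and 0.124), nor hoxd13 (adjusted p = 0.0518, 0.169 and 0.079).

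Arrays of the same replicate number deviated together, so the numbers pair them, and the difference was also taken within each replicate. It was 5.11, 5.14, 6.09 and 4.75 for hoxd10, 1.71, 2.10, 4.79 and 4.06 for hoxd1, and 1.12, 0.88, 2.38 and 2.77 for hoxd13. For 5 of 12 members it was above 0 in all 4 replicates, as for 12.5% of all probes, and these were the 3 HoxD probes, hoxa3 and hoxc8. With the replicate as a block hoxa3 was called too (log2 2.46, adjusted p = 0.0432, against 0.174 without the block) and hoxd13 was not (adjusted p = 0.0553). Hoxa3 was also called without replicate 1 (log2 2.98, adjusted p = 0.0276). With array design as a block all 3 HoxD probes and hoxa3 were called (hoxa3 adjusted p = 0.0457).

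**Figure D3:**
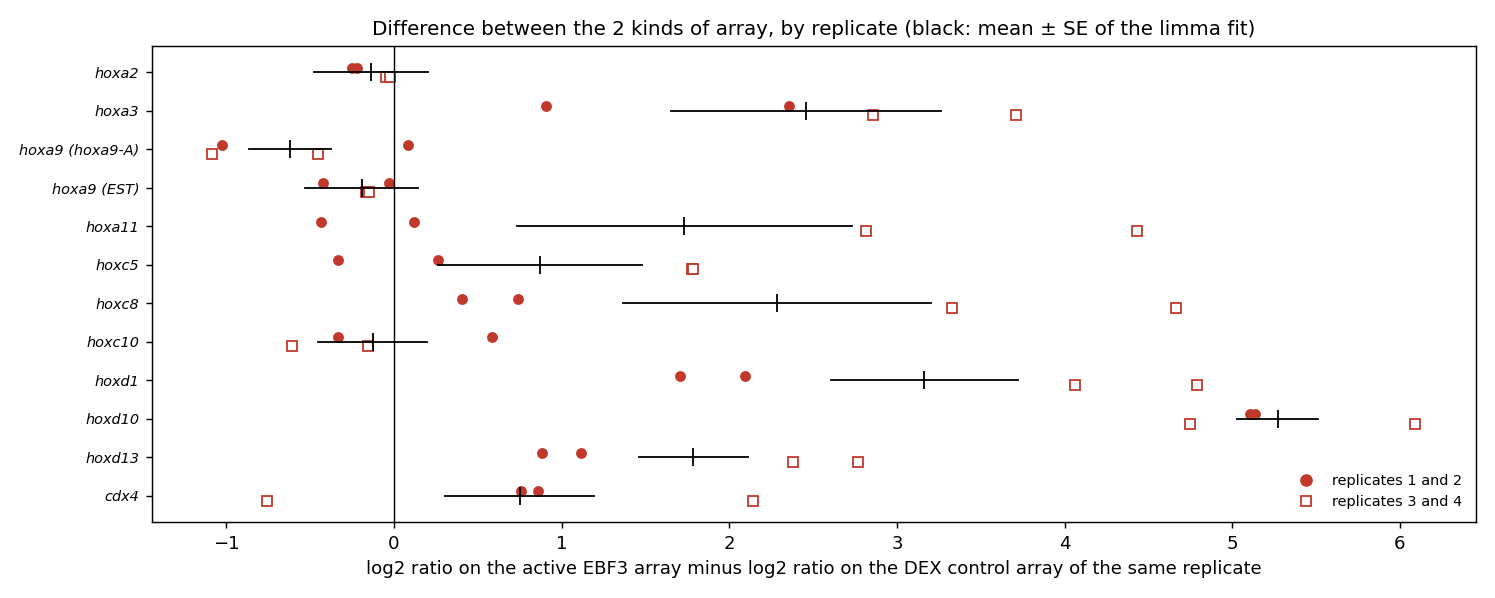
Log2 ratio on the active EBF3 array minus that on the DEX control array of the same replicate, for each of the 12 members, with black marks at the mean ± SE of the limma fit. Circles are replicates 1 and 2 and squares are replicates 3 and 4. The hoxd10 values lie between 4.75 and 6.09, whereas hoxa11 ranges between -0.43 and 4.43 and its squares lie far to the right of its circles.

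Within array designs, the difference was 5.12 on replicates 1 and 2 and 5.42 on replicates 3 and 4 for hoxd10, 1.90 and 4.43 for hoxd1, and 1.00 and 2.57 for hoxd13. For hoxc8 it was 0.57 and 4.00, for hoxa3 1.63 and 3.29, for hoxa11 -0.16 and 3.62, and for hoxc5 -0.04 and 1.78. All 3 HoxD probes thus kept their direction in both designs, as did hoxc8 and hoxa3, while hoxa11 and hoxc5 did not.

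Of the 9 related probes, 6 rose on the active EBF3 arrays and in the comparison with the DEX control, against 3.03% and 2.42% of all probes. For all 6, every active EBF3 array lay above every DEX control array, as for 4.9% of all probes. RefSeq synonyms of xcad2 and cad2-A point to both cdx1 and cdx2, so their gene was not settled by name. The 4 caudal-type probes, for activators of trunk Hox genes, were all called. Cad2-A had log2 ratios of 4.08, 4.46, 4.50 and 4.03 on the active EBF3 arrays and 0.40, 0.88, -1.49 and 0.27 on the DEX control arrays, and was 19.3-fold higher (log2 4.27 ± 0.15, SE, n = 4, adjusted p = 0.000448). Its mean was 4.27 on each array design.

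The arsc02 probe, which RefSeq lists under cdx2, had 1.56, 3.18, 3.50 and 4.04 on the active EBF3 arrays and 0.42, 0.03, 0.17 and 1.16 on the DEX control arrays, a mean of 8.39-fold. Xcad2 had 1.14, 1.58, 3.65 and 3.20 on the active EBF3 arrays and -0.03, -0.34, -1.50 and -0.02 on the DEX control arrays, a mean of 5.25-fold. The other cdx2 probe had 0.58, 2.93, 1.88 and 2.43 on the active EBF3 arrays and -0.05, 0.20, -0.27 and -0.25 on the DEX control arrays, a mean of 3.88-fold. These 3 had adjusted p of 0.0115, 0.0345 and 0.0374 in the same order, and in the comparison with the DEX control of 0.0221, 0.0316 and 0.0379. Each call was lost without some single replicate, with adjusted p of up to 0.204 for arsc02, 0.159 for xcad2 and 0.255 for cdx2. With the replicate as a block xcad2 was not called (adjusted p = 0.0783), and with array design as a block cdx2 was not (adjusted p = 0.0544).

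Evx1, the even-skipped type gene beside the HoxA cluster that marks posterior mesoderm and the tail bud, had log2 ratios of 2.73, 4.48, 6.01 and 4.89 on the active EBF3 arrays and 0.25, -0.27, 0.21 and 1.54 on the DEX control arrays. It was 23.1-fold higher in active EBF3 caps (log2 4.53 ± 0.51, SE, n = 4, adjusted p = 0.00739). Hoxc6, a forelimb-level gene that the array names XlHbox1, had 1.55, 2.27, 3.26 and 3.44 on the active EBF3 arrays and -0.10, 0.45, -1.33 and 0.27 on the DEX control arrays, a mean of 6.20-fold (log2 2.63 ± 0.34, adjusted p = 0.0107). Without replicate 4 neither was called on the active EBF3 arrays (adjusted p = 0.0684 for evx1 and 0.0696 for hoxc6). In the comparison with the DEX control evx1 was 17.1-fold higher (adjusted p = 0.00928) and hoxc6 7.01-fold (adjusted p = 0.0163), and neither was called there without replicate 2, 3 or 4 (adjusted p of 0.0551 to 0.107). On the active EBF3 arrays the untreated signal was well above background on all 4 arrays for xcad2, on 3 for cad2-A and on 2 each for evx1, hoxc6, arsc02 and cdx2. With normexp and loess the folds there were 7.67 for cad2-A, 7.15 for evx1, 4.05 for xcad2, 2.82 for arsc02, 2.04 for hoxc6 and 1.48 for cdx2, and cad2-A was the only one of the 6 called on the active EBF3 arrays (adjusted p of 0.0717 to 0.12 for the others) or against the DEX control (0.0594 to 0.158 for the others).

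The 3 related probes that were not called were those for hoxa7 (log2 0.58, adjusted p = 0.262), hoxb7 (0.25, adjusted p = 0.425) and hox2.7 (-0.34, adjusted p = 0.304). The hoxb7 probe, for a trunk gene, was well above background in both channels of all 8 arrays. Its signal was 15523, 7489, 154 and 331 in active EBF3 caps, against 13726, 5702, 94.6 and 400 in untreated caps on the same arrays. Both channels were thus far dimmer on replicates 3 and 4. Hoxb7 is a Hox probe with a measured untreated level that passed in neither direction.

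**Figure D4:**
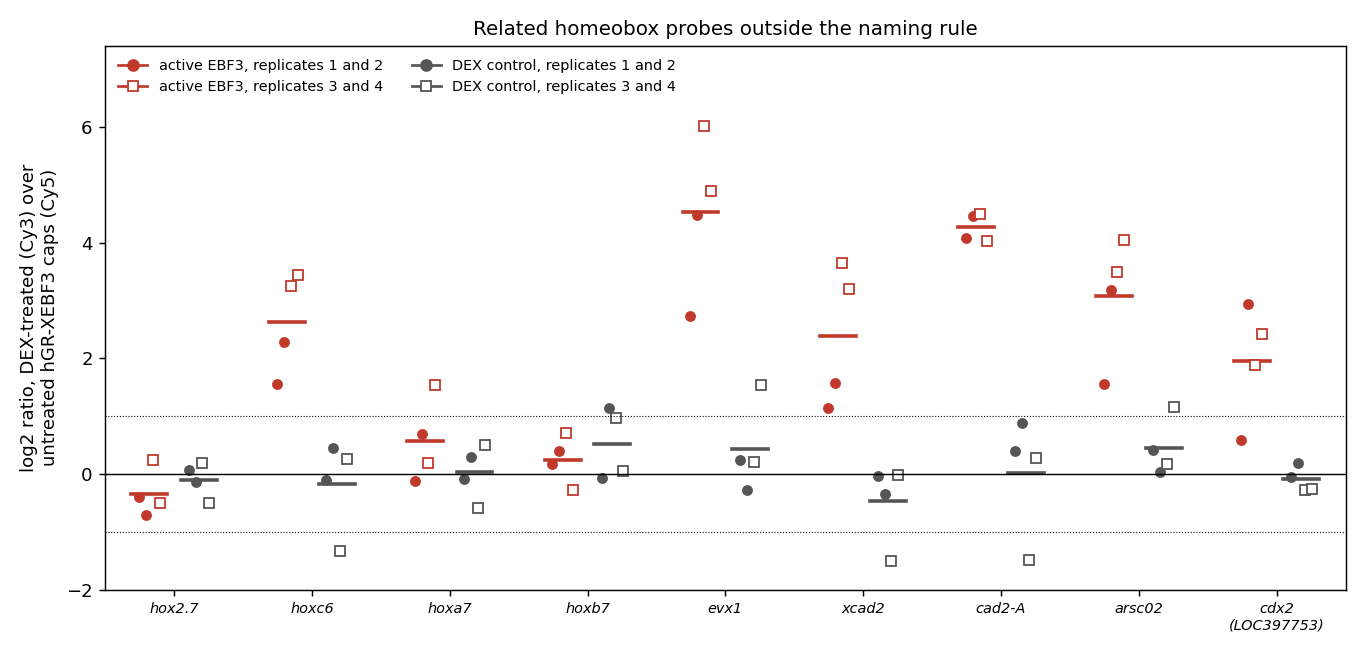
Log2 ratio of DEX-treated caps (Cy3) over untreated hGR-XEBF3 caps (Cy5) for the 9 related probes outside the naming rule, on the 4 active EBF3 arrays (red, left) and the 4 DEX control arrays (grey, right), with bars at the means. Circles are replicates 1 and 2 and squares are replicates 3 and 4. The red points of hoxc6, evx1 and the 4 caudal-type probes lie above all of their grey points.

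Among 2 probes for Hox cofactors, meis3 rose on the active EBF3 arrays (log2 1.03, adjusted p = 0.0177) but was not called against the DEX control (0.76, adjusted p = 0.239). The other was meis1 (0.00, adjusted p = 0.988). Of 16 probes for posteriorising signals and Hox regulators, 3 rose, 2 fell and 11 were not called, in both comparisons. Over all probes 3.03% rose and 2.84% fell on the active EBF3 arrays, and 2.42% and 1.44% did so against the DEX control. The median log2 ratio of the 16 was 0.87 on the active EBF3 arrays, against 0.08 over all probes.

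The 3 that rose were wnt3a, a posteriorising Wnt ligand (log2 5.53, adjusted p = 0.000448), fgf8, a posterior growth factor (1.80, adjusted p = 0.00246), and evx1. Evx1 is also counted among the related probes above. The study picked wnt3a from these same arrays, partly for its rise, so its place in the count is not independent of the result. The untreated wnt3a signal was well above background on 1 of 4 active EBF3 arrays. On the DEX control arrays neither wnt3a channel passed that mark. The study reports that wnt3a also rose in its arrays without Noggin, but found it unchanged by EBF3 overexpression in whole embryos. The 2 that fell were cyp26a1, the enzyme that degrades retinoic acid (-3.09, adjusted p = 0.0107), and the retinoic acid receptor rarg (-1.17, adjusted p = 0.0304). The aldh1a2 probe, for the enzyme that makes retinoic acid, had 0.14 (adjusted p = 0.517). The hindbrain genes egr2 (1.57, adjusted p = 0.0785) and mafb (1.20, adjusted p = 0.0791) were not called. Of 7 probes for chromatin regulators of Hox clusters (ezh2, eed, kmt2a, bmi1 with 2 probes, cbx2 and ctcf) none was called, and their log2 ratios ran between -0.39 and 0.61.

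The caps expressed neural ectoderm markers, with sox2, sox3, soxD, zic1 and zic2 well above background in both channels of all active EBF3 arrays. Of 8 probes for neural ectoderm, 3 fell on the active EBF3 arrays (zic1, log2 -2.43, ncam1, -1.51, and sox2, -1.16). Of 7 tested against the DEX control only zic1 fell. The called ncam1 probe also had a mean of -1.32 on the DEX control arrays, a difference of -0.20 (adjusted p = 0.943). The other ncam1 probe (-0.66 on the active EBF3 arrays) was not called. Beside these counts and those that follow, 3.03% of all probes rose and 2.84% fell on the active EBF3 arrays. Against the DEX control 2.42% rose and 1.44% fell. Some markers of other germ layers were also called higher, and their relation to the Hox probes was not tested. Of 12 mesoderm probes 3 rose (myod1, myf5 and not), none fell and 9 were not called, with a median log2 ratio of 0.57, and the log2 ratio of their summed signal was 3.22 to 4.45 on the active EBF3 arrays, against -0.80 to -0.22 on the DEX control arrays. Most of that sum in active EBF3 caps came from myod1 (108396 to 171566) and not (87080 to 114411), out of 211158 to 296639 over the list. Brachyury, a defining mesoderm marker, was well above background on 0 of 4 active EBF3 arrays in the active EBF3 channel, and its log2 ratio was -0.14 (adjusted p = 0.701). Of 10 endoderm probes 2 rose (1 of the mix1 probes and gata5) and none fell, with a summed ratio of 1.41 to 2.00 against -0.15 to 0.22. Most of that sum in active EBF3 caps came from gata5 (4436 to 5459, out of 5370 to 8975). The mean was above 0 for 5 of the 10 probes. The other mix1 probe had -0.76 and sox17a, an endoderm marker, had -2.62, and neither was called. Of 9 epidermis probes 1 rose on the active EBF3 arrays (gata3, not called against the DEX control), with a summed ratio of 0.73 to 1.33 against -0.54 to 2.15. The DEX control arrays were uneven for these genes. On replicate 1 the log2 ratio was 4.22 for gata3, 3.60 for gata2, 2.78 for vent1 and 2.38 to 4.14 for the vent2 probes. On the other replicates these probes lay at -2.98 to -0.14. The tfap2a probe lay at -0.10 to 0.10 on all 4. The source was not tested. The part of the cells that these markers stand for in the Hox and Cdx results was not tested. In whole caps more cells of a kind and more RNA per cell cannot be told apart.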

How the data were processed

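Total RNA of whole caps was labelled and hybridised by the study's core facility to Agilent Xenopus arrays. The deposited scanner files hold intensity values made by the authors with Agilent Feature Extraction, version 8.1.1.1 for replicate 1 and 9.1.3.1 for the others per the file headers, with background subtraction and LOWESS dye normalization within each array. They also hold a log10 ratio, and the value table deposited by the authors held such a log10 ratio with its sign turned, empty for 3228 to 6923 probes an array. It matched the processed signals within 0.01 log2 for 100% of its probes on replicates 1 and 2 and for 88.8% to 90.0% on replicates 3 and 4 (Pearson's r of 0.976 or more). From the deposited processed signals the log2 ratio of Cy3 over Cy5 was taken per spot, leaving out controls and spots the software marked non-uniform, and averaged over spots of a probe. Arrays were not scaled to each other, except for the rough folds of hoxc8, hoxa3 and hoxa11. For these the average intensities of the 4 active EBF3 arrays were quantile-normalised to each other. Their number, 4 per group, limits the precision.

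Ratios were tested with limma 3.58.1 in R 4.3.3, with the data.table package at version 1.17.8, two-sided, as a mean against 0 within each kind of array and as a difference between the kinds, with Benjamini-Hochberg adjustment over all probes with a value on each array. A signal was called well above background if the image software marked at least 0.5 of its spots so. That mark needed 2.6 background SDs on replicates 1 and 2 and 13 on replicates 3 and 4. Same-numbered arrays of the 2 kinds correlated in their deviations from the group means (r of 0.591, 0.493, 0.366 and 0.574 over 21197 probes, against at most 0.0483 for other numbers), so the numbers pair the arrays. The submitters call the arrays biological replicates and name no clutches, so the p-values measure only the spread between these arrays. The test was tried on simulated ratios first.

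A gene that met the naming rule and 1 gene in each of 2 lists are not reported here, and the counts leave them out. All other members were accounted for. Values on every array are given for members called, for members measured in both channels on at least 3 of 4 active EBF3 arrays, and for related probes called. Those of hoxa3, hoxa11, hoxc5, hoxc8 and cdx4 were added after they were seen. The members and lists were chosen with earlier results of these data known. Gene names of related probes came from RefSeq (assembly 10.1), which lists L and S copies for 7 of the 11 member genes, and whether a probe separates them was not stated. No probe or promoter sequence was used here.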

Additional observations from a re-analysis of the deposited data

Results flagged for a closer look

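Among 42 sets of 4 arrays tested with Dixon's ratio, 1 held a value far from the other 3, and chance alone gives about 1 in 20. The cdx4 probe had a log2 ratio of -1.35 on replicate 3 of the DEX control arrays, whereas the others lay between -0.20 and 0.00.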

How the results depend on the processing

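The hoxd10 call on the active EBF3 arrays held under all 12 alternatives run (log2 4.02 to 5.04), and against the DEX control under 11 of 12, the exception being replicates 1 and 2 alone (log2 5.12, adjusted p = 0.0701). The number of members called higher on the active EBF3 arrays was 3, against 5 with arrays centred on the median and 1 by the unpaired t-test. It was 1 on replicates 1 and 2, 7 on replicates 3 and 4, and 1 to 5 with each replicate left out. On the DEX control arrays it was 0, and 1 (hoxc8) on replicates 3 and 4 alone. Against the DEX control it was 3, with 1 of the 2 members left after dim probes were dropped, 0 on replicates 1 and 2, 7 on replicates 3 and 4, and 1 to 4 with each replicate left out. With the replicate block it was also 3, and the block changed no call other than those of hoxa3, hoxd13 and xcad2.

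Signs turned only for values that were not called, most of them near 0. On the active EBF3 arrays this was hoxa9-A (0.034 with normexp and loess, 0.018 on replicates 1 and 2), hoxc10 (-0.011 with normexp and loess) and cdx4 (-0.026 on replicates 3 and 4). Against the DEX control it was hoxa2 (0.0039) and the second hoxa9 probe (0.040) with normexp and loess, hoxc5 (-0.037, against 0.87), hoxc10 (0.13) and hoxa11 (-0.16, against 1.73 on all replicates) on replicates 1 and 2, hox2.7 on replicates 3 and 4 (0.025), and hoxc10 without replicate 3, its values running from -0.36 to 0.032 with each replicate left out.

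The background counts moved as well. On the active EBF3 arrays 647 probes passed upward and 607 downward, against 329 and 287 with normexp and loess. The counts were 193 and 81 by the unpaired t-test, 102 and 11 on replicates 1 and 2, and 1423 and 1538 on replicates 3 and 4. Leaving out each replicate gave 322 to 734 upward and 153 to 752 downward. Against the DEX control 513 and 306 passed, with 324 and 157 for normexp and loess. The counts there were 0 and 0 on replicates 1 and 2, and 461 and 229 of 21483 on replicates 3 and 4. With each replicate left out they were 265 to 501 and 97 to 292. On the DEX control arrays none passed, 205 and 291 did on replicates 3 and 4 alone, and 70 and 119 without replicate 1 (none without replicate 2, 3 or 4). The causes were not tested. The untreated channel, measurable for few members, limits every ratio of the dim ones.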
